A study of Mus musculus with 6 samples.

Results

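Interleukins, the tumour necrosis factor (TNF) superfamily and their receptors were measured in stria vascularis, the vascularised epithelium in the lateral wall of the cochlea, which supplies the endolymph with K+. They were taken as all probe sets whose gene symbol in the platform annotation begins with Il and a digit, with Tnfrsf or with Tnfsf, or is Tnf, Lta or Ltb, and Il34 was left out. This gave 163 of 45037 probe sets and 102 of 18193 named genes, of which 41 encode ligands, 54 receptors and 7 other products such as antagonists, binding proteins and antisense transcripts. RNA of 129S6 mice was hybridised to 6 Affymetrix mouse 430 2.0 gene chips. Of these, 3 held stria vascularis of wild type Slc26a4+/+ mice and 3 that of Slc26a4-/- mice, which lack the anion exchanger pendrin in the whole body. All mice were adults. Vessels were not flushed, so that blood of the capillaries was part of every sample, in a minimal amount that the paper judged insignificant. Each chip carried the RNA of a pool of 2 animals after 2 rounds of amplification, so that n = 3 counts pools and p-values measure the spread between them.

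Interleukins and TNF ligands are secreted or membrane-bound proteins through which immune and epithelial cells signal to their neighbours, and each acts only on cells that carry its receptor. Receptors of the IL-1 family signal through the adaptor MyD88, those of the type I and IL-10 families through JAK kinases and STAT factors, and those of the TNF family through TRAF adaptors or death domains. Receptor genes are often transcribed in resting tissue, whereas many of the ligand genes are switched on in activated immune cells.

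The signal of a probe set is the intensity that the array software GCOS gives on a linear scale, and where a gene had several probe sets the one with the highest mean log2 signal stands for it. The mean signal of an array was between 662 and 719.6. As background served, on each array, the 95th percentile of 44 probe sets for olfactory receptor genes. It was 199.7, 269 and 319 in Slc26a4+/+ against 187, 204 and 214 in Slc26a4-/-. All 6 marker genes of marginal cells and all 3 of basal cells, epithelial cells of this tissue, were above background on at least 2 arrays of each genotype. As a check of RNA quality, the 3′ signal of Gapdh was divided by its 5′ signal, and the ratio was 2.25 to 10.5 in Slc26a4+/+ and 3.34 to 3.80 in Slc26a4-/-. Xist, which silences an X chromosome in females, gave 771, 3358 and 1022 in Slc26a4+/+ against 5634, 5529.6 and 5863 in Slc26a4-/-, and Eif2s3y of the Y chromosome gave 1541, 639.9 and 805 in Slc26a4+/+ against 3.1, 3.6 and 3.1 in Slc26a4-/-, so that sex and genotype cannot be told apart on these arrays. The signals of Slc26a4 itself were 1354, 1262 and 793 in Slc26a4+/+ against 520.2, 717 and 618.5 in Slc26a4-/- (log2 fold change -0.85, SE 0.23, adjusted p = 0.119). The sources used here do not say whether its probe set covers deleted sequence, so these signals do not check the genotypes.

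A single gene of the 102 passed an adjusted p of 0.05 in the comparison of genotypes. Tnfrsf21, the death receptor DR6, was lower in Slc26a4-/-, and 0 genes were higher. Over all 18193 genes, 1.88% were higher and 0.803% lower at this threshold. At an unadjusted p under 0.05, 8 of the 102 genes were higher, where 8.48% of all genes were, and 6 were lower, where 6.42% of all genes were. Together these were 13.7% of the 102 genes, against 14.9% of all genes. In 12 genes all Slc26a4-/- arrays lay above all Slc26a4+/+ arrays and in 8 genes below them. That was the case in 11.2% of all genes upward and in 9.73% downward. The share of these genes that differed between the genotypes was therefore near the background of the whole array. In bulk tissue fewer cells of a type and less RNA per cell cannot be told apart, and this holds for every difference below.

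Most of the genes were dim. On all 6 arrays 66 of the 102 genes (64.7%) lay below background, against 37.4% of all genes. Above background on at least 2 arrays of a genotype were 30 genes (29.4%), against 58.4% of all genes, and above background on all 6 arrays were 15 genes (14.7%), against 46.1%. A signal below background gives only an upper limit and no order of levels.

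A larger share of the receptors than of the ligands was above background. Of the 54 receptor genes 21 (38.9%) were above background on at least 2 arrays of a genotype, 16 in Slc26a4+/+ and 21 in Slc26a4-/-. Of the 41 ligand genes 7 (17.1%) were, 3 in Slc26a4+/+ and 7 in Slc26a4-/-. On all 6 arrays 13 receptors were above background, and Il18 and Il20 were the 2 ligands. These counts were not tested, since genes of a list are not replicates. Probe sets differ in brightness for the same amount of RNA, so the counts say which genes could be measured and not which were more abundant. The background itself was lower on the Slc26a4-/- arrays than on 2 of the Slc26a4+/+ arrays, and its part in the higher counts of Slc26a4-/- was not tested.

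**Figure D1:**
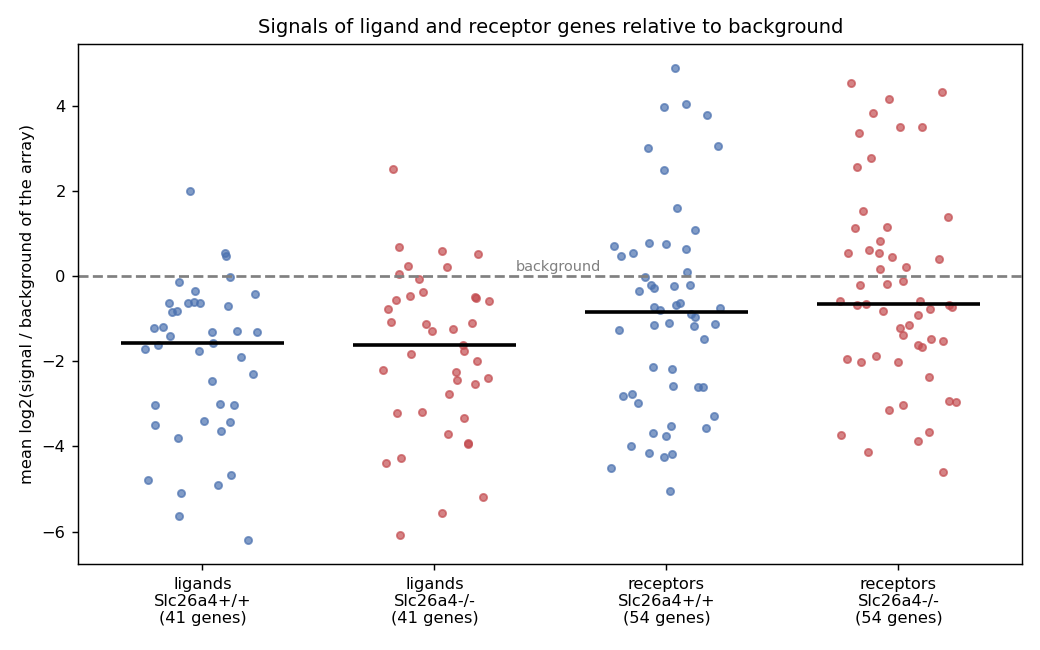
Mean log2 ratio of signal to background of each ligand gene and each receptor gene in both genotypes, with 1 point per gene and a line at the median. Most of the 41 ligands lie under the background line at 0, and more of the 54 receptors than of the ligands lie above it.

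The log2 fold change, given throughout as Slc26a4-/- over Slc26a4+/+, had a median of 0.05 over the receptors, -0.19 over the ligands and -0.03 over all genes. Below background on all 6 arrays were 31 receptors (57.4%) and 31 ligands (75.6%), so that both medians rest mostly on signals under background. Neither median kept its sign in every alternative, since that of the receptors was -0.12 without Slc26a4+/+ replicate 1 and -0.0078 without Slc26a4-/- replicate 3, and that of the ligands was 0.04 without Slc26a4+/+ replicate 3. At an unadjusted p under 0.05, 7 receptors were higher and 3 lower, while 1 ligand was higher and 2 were lower. These were 18.5% of the receptors and 7.32% of the ligands, against 14.9% of all genes. The families were uneven. All 5 receptors of the IL-17 family were above background in Slc26a4-/- and all 5 ligands grouped with them were below background on every array. In the group of IL-6 and IL-12, 2 of 6 receptors and 0 of 6 ligands were above background. In the TNF family this held for 8 of 19 receptors and 1 of 10 ligands, in the type I family for 3 of 11 receptors and 2 of 9 ligands, and in the IL-1 family for 2 of 8 receptors and 3 of 8 ligands. In the IL-10 family it was 1 of 5 receptors and 1 of 3 ligands.

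**Figure D2:**
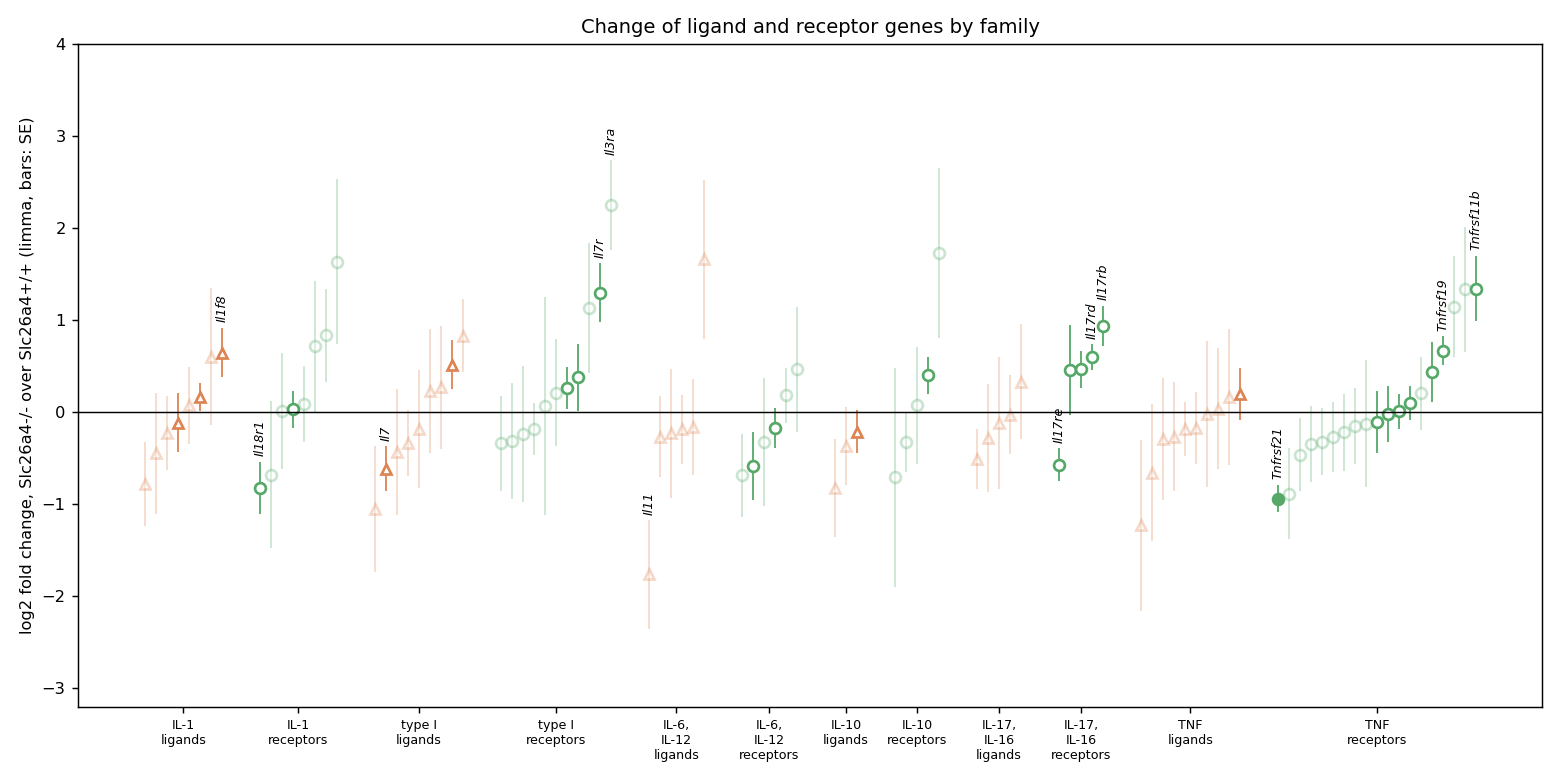
Log2 fold change (Slc26a4-/- over Slc26a4+/+) of each ligand (triangles) and receptor gene (circles) by family, with SE of the limma fit, filled where the adjusted p was under 0.05 and faded where the gene was not above background on at least 2 arrays of a genotype. Only Tnfrsf21 is filled, and the receptors of the IL-17 family are the group in which no gene is faded.

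Promoter sequences are shown for the 5 receptor genes above background in Slc26a4-/- that had the smallest adjusted p, because they carry the differences described next. They are the 300 bases from 250 before to 50 after the start of transcription in RefSeq (GRCm38.p6), written 5′ to 3′ on the strand of the gene, and 81 of the 102 genes had such an entry. Capitals mark matches on either strand to TTCNNNGAA, which STAT factors bind, or to GAGGAA, a core bound by the macrophage factor PU.1. No match to the TATA box TATAAA or to the NF-kB motif was found in the 5 windows. The entries are Tnfrsf21 at chr17:43016305-43016604 on the plus strand, Il17rd at chr14:27038751-27039050 on the plus strand, Il17rb at chr14:30008847-30009146 on the minus strand, Tnfrsf19 at chr14:61046806-61047105 on the minus strand (the first of 2 listed starts) and Il7r at chr15:9529827-9530126 on the minus strand.
Tnfrsf21: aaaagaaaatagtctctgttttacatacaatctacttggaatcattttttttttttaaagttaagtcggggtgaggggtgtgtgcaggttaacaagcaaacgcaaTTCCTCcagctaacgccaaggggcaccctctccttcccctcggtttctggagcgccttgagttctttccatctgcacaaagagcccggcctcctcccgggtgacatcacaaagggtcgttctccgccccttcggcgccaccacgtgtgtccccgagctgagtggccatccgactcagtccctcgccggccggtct
Il17rd: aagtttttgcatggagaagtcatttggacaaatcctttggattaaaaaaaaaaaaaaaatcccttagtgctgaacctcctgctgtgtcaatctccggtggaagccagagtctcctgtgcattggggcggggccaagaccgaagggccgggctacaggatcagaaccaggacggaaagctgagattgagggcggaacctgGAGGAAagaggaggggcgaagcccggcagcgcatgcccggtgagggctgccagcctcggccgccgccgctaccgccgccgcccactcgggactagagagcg
Il17rb: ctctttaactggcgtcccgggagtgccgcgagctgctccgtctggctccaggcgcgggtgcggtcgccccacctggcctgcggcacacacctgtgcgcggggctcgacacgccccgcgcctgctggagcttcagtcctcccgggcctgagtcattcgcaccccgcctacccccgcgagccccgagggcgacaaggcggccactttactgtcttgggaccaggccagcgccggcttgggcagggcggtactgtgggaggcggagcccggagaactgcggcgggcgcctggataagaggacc
Tnfrsf19: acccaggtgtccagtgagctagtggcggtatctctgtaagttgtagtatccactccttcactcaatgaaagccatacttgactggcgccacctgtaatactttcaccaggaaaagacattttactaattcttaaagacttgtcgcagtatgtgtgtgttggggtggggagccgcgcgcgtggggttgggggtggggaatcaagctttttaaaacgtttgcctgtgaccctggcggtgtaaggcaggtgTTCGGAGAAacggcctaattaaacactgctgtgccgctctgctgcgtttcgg
Il7r: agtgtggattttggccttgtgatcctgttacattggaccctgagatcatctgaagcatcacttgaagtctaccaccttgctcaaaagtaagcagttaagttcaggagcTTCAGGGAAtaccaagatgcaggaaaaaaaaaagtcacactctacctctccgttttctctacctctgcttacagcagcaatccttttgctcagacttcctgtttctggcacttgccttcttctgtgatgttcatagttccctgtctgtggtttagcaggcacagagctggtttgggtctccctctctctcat
The GAGGAA core stood once in Tnfrsf21 and once in Il17rd, where it began at positions -145 and -51 from the start site. The STAT motif stood once in Tnfrsf19 at -2 and once in Il7r at -142, and Il17rb held neither. Of 32851 promoters of this length 28.3% held GAGGAA and 8.30% the STAT motif. Of the 98 promoters of the genes described here 31 (31.6%) held GAGGAA and 18 (18.4%) the STAT motif, while the TATA box was in 16 (16.3%, against 13.6% of all) and the NF-kB motif in 11 (11.2%, against 8.46%). The dinucleotide CG occurred 17 times in the window of Tnfrsf21, 19 times in Il17rd, 32 times in Il17rb, 14 times in Tnfrsf19 and 1 time in Il7r, with a median of 7 over all promoters. A match describes the letters of the window and does not show binding.

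Among the receptors of the TNF family, Tnfrsf21 had signals of 7799, 8772 and 6639.8 in Slc26a4+/+ against 4338, 4079 and 3628.5 in Slc26a4-/-. Every Slc26a4-/- array lay below every Slc26a4+/+ array. The difference, from limma, was -0.94 on the log2 scale (SE 0.15, adjusted p = 0.0131, 1.92-fold lower). DR6 carries a cytoplasmic death domain and is known from neurons and lymphocytes. Its other probe set gave 749, 1333 and 1388 in Slc26a4+/+ against 899, 860.4 and 899 in Slc26a4-/-, and there the groups overlapped (log2 fold change -0.33, adjusted p = 0.638). The call of Tnfrsf21 was lost without Slc26a4+/+ replicate 2 (adjusted p = 0.0678) and without Slc26a4-/- replicate 1 (0.0654), replicate 2 (0.0839) or replicate 3 (0.116), while the log2 fold change stayed between -1.05 and -0.85. Without the trend of the spread on the signal in the fit the adjusted p was 0.209, with each array centred on its median it was 0.168, and with a covariate for the Xist signal it was 0.295.

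Tnfrsf19 and Tnfrsf11b had higher signals on all Slc26a4-/- arrays, but did not pass the adjusted threshold. Tnfrsf19, the orphan receptor TROY of epithelial and neural progenitor cells, had 1497, 1204 and 1663 in Slc26a4+/+ against 2095, 2359 and 2421 in Slc26a4-/- (log2 fold change 0.67, SE 0.16, adjusted p = 0.0767). The window at the first of its 2 listed starts holds the STAT motif shown above, and the part of that motif in the difference was not tested. Without Slc26a4+/+ replicate 3 the adjusted p was 0.0368. Tnfrsf11b encodes osteoprotegerin, a secreted decoy that binds the osteoclast factor RANKL. Its signals were 1092, 429 and 342 in Slc26a4+/+ against 1352, 1352.5 and 1425 in Slc26a4-/-. The Slc26a4-/- arrays were close to each other, while Slc26a4+/+ replicate 1 stood apart from the other 2 (log2 fold change 1.34, SE 0.36, adjusted p = 0.119). Without that array the log2 fold change was 1.85 and the adjusted p 0.00116, and without Slc26a4+/+ replicate 3 these were 1.01 and 0.235. Another probe set of Tnfrsf11b was below background on every array, with 36.2, 64.9 and 21.2 in Slc26a4+/+ against 10.1, 12.7 and 44.7 in Slc26a4-/- (-1.04, SE 0.76, adjusted p = 0.66). With both probe sets averaged the log2 fold change of Tnfrsf11b was 0.15 (adjusted p = 0.934). Tnfsf11, the gene of RANKL, was below background on all arrays, with signals between 4.1 and 17.0, and Tnfrsf11a, the receptor RANK, was above background on 1 array, Slc26a4+/+ replicate 3.

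The receptors for TNF itself and for TWEAK showed no difference beyond the spread between arrays. Tnfrsf1a, which carries a death domain and binds TNF, had 1568, 2128.5 and 2627 in Slc26a4+/+ against 2149, 2251 and 1848 in Slc26a4-/- (log2 fold change 0.01, SE 0.19, adjusted p = 0.991), and the groups overlapped. Tnfrsf12a, the receptor Fn14 for TWEAK, had 1683, 2824 and 2059.7 in Slc26a4+/+ against 2385, 2399.5 and 2105 in Slc26a4-/- (0.10, SE 0.19, adjusted p = 0.887). The direction of both small differences changed with the processing. Tnfrsf1b, the TNF receptor of leukocytes and endothelium, was above background on 1 Slc26a4+/+ array and on all 3 Slc26a4-/- arrays, with signals of 139.7, 180.2 and 333 and 252, 300.2 and 275, respectively (log2 fold change 0.44, SE 0.33, adjusted p = 0.671). Tnfrsf4, the receptor OX40 of activated T cells, was above background on all arrays with overlapping signals between 256 and 520.0, and the decoy TRAIL receptor Tnfrsf22 was above background on 1 Slc26a4+/+ array and 2 Slc26a4-/- arrays. The other 11 receptors, among them the B cell receptors Tnfrsf13b, Tnfrsf13c and Tnfrsf17, were not above background on 2 arrays of either genotype.

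The ligands of the TNF family were at or below background. Tnf, the founding member made by activated macrophages, had 61.4, 37.5 and 62.9 in Slc26a4+/+ against 32.6, 29.3 and 87.1 in Slc26a4-/-, all below background. Lta and Ltb, the lymphotoxins of lymphocytes, had signals from 7.5 to 122 and from 11.2 to 55.3. Tnfsf10, the death ligand TRAIL, was above background on 2 Slc26a4-/- arrays, with 142, 199.5 and 163 in Slc26a4+/+ against 204, 205 and 165 in Slc26a4-/- (log2 fold change 0.19, SE 0.28, adjusted p = 0.849). Tnfsf13b, the B cell factor BAFF, was above background on 1 array. The other 8 of the 10 ligands were below background on every array. A further probe set of Tnfsf13b had 77.3, 131 and 44.4 in Slc26a4+/+ against 197, 191 and 175 in Slc26a4-/-, with 1 array above background (adjusted p = 0.241). One of Tnfsf10, below background on every array, had 66.4, 65.6 and 72.2 against 183, 117 and 136 (adjusted p = 0.274). In both the genotypes did not overlap, while the third probe set of each gene overlapped. Among the relatives of this family that carry other symbols, such as Ltbr, Fas, Cd40 and Ngfr, 0 of 12 genes passed the threshold, 1 was higher and 2 were lower at an unadjusted p under 0.05, and 9 were below background on every array. At that unadjusted level 8.48% of all genes were higher and 6.42% lower.

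**Figure D3:**
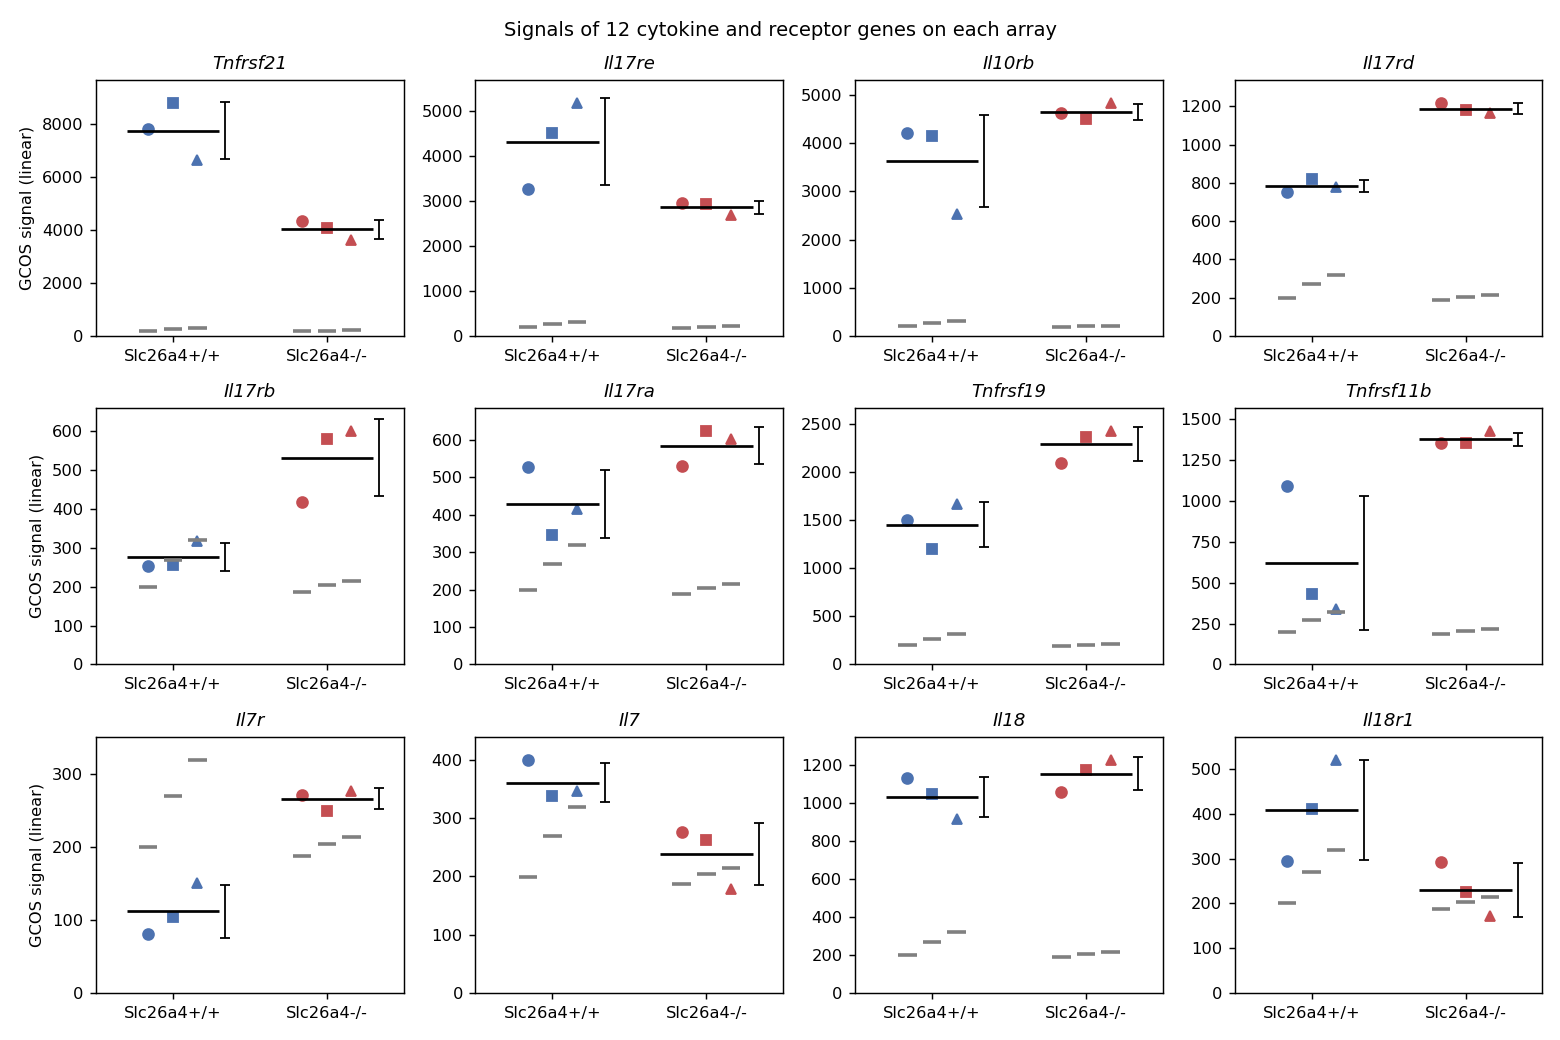
Signals of the receptor genes and of the ligands Il7 and Il18 on each array, on linear axes that start at 0, with replicates 1, 2 and 3 as circles, squares and triangles, a black line at the mean with a bar of 1 SD (n = 3) and grey ticks at the background of each array. The genotypes do not overlap for Tnfrsf21, where the Slc26a4-/- arrays lie between 3629 and 4338 and the Slc26a4+/+ arrays between 6640 and 8772.

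The receptors of the IL-17 family were the group in which every member was above background in Slc26a4-/-, and 4 of 5 were in Slc26a4+/+. IL-17 cytokines act on epithelia and fibroblasts, where they induce chemokines and antimicrobial proteins. At an unadjusted p under 0.05, 3 of the 5 receptors were higher and 1 was lower, and in these 4 the genotypes did not overlap. None passed the adjusted threshold. Over all genes 8.48% were higher and 6.42% lower at the unadjusted level. The genotypes did not overlap in 11.2% of all genes upward and in 9.73% downward.

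Il17rd encodes Sef, an inhibitor of fibroblast growth factor signalling that also joins IL-17 receptor complexes. Its signals were 755, 819 and 780.0 in Slc26a4+/+ against 1218, 1184 and 1164 in Slc26a4-/-, with a spread within each genotype that was small beside the gap (log2 fold change 0.60, SE 0.14, adjusted p = 0.0699). Without Slc26a4+/+ replicate 1 the adjusted p was 0.0493, while with any other array left out it stayed above 0.05 and reached up to 0.322. Another probe set of Il17rd had 171, 282 and 389.5 in Slc26a4+/+ against 206, 197.5 and 231 in Slc26a4-/-, near background and with no such gap (-0.33, SE 0.32, adjusted p = 0.752). With both averaged the log2 fold change of Il17rd was 0.13 (adjusted p = 0.857). Il17rb, the receptor chain for IL-25 and IL-17B, had 254, 257 and 317 in Slc26a4+/+, where 1 array was above background, and 418, 579 and 599 in Slc26a4-/-, where all were (log2 fold change 0.94, SE 0.22, adjusted p = 0.0742). Both adjusted p-values were under 0.05 when only probe sets with a mean signal of at least 300 were tested, namely 0.0366 for Il17rd and 0.0438 for Il17rb. The mean of Il17rb was 276 in Slc26a4+/+ and 532 in Slc26a4-/-, so it passed this filter only through Slc26a4-/-. Its value under the filter is therefore no separate support.

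Il17ra, the chain shared by most IL-17 receptors, had 527, 346 and 415.5 in Slc26a4+/+ against 530.5, 623 and 602 in Slc26a4-/- (log2 fold change 0.46, SE 0.20, adjusted p = 0.405). The lowest Slc26a4-/- array was only just above the highest Slc26a4+/+ array. Il17rc, the partner chain for IL-17A and IL-17F, had 368, 88.9 and 341 in Slc26a4+/+ against 301, 392 and 244 in Slc26a4-/-, so that the genotypes overlapped (0.46, SE 0.49, adjusted p = 0.787). Il17re, the epithelial receptor for IL-17C, had lower signals in Slc26a4-/-, with 3264, 4506 and 5169 in Slc26a4+/+ against 2960.2, 2918 and 2692 in Slc26a4-/- (log2 fold change -0.57, SE 0.18, adjusted p = 0.194). Without Slc26a4+/+ replicate 1 the log2 fold change of Il17re was -0.76 and the adjusted p 0.0146, and without Slc26a4+/+ replicate 3 these were -0.43 and 0.285. A further probe set of Il17re differed less, with 2779.5, 2939 and 2855 in Slc26a4+/+ against 2664, 2723 and 2305 in Slc26a4-/- (-0.16, SE 0.13, adjusted p = 0.701). The third of its probe sets was close to background and overlapped between the genotypes, with 249, 176 and 305 in Slc26a4+/+ against 241, 262 and 350.2 in Slc26a4-/- (0.24, SE 0.28, adjusted p = 0.803). With the 3 averaged the log2 fold change of Il17re was -0.16 (adjusted p = 0.737). The ligands Il17a, Il17b, Il17d and Il25 and the CD4 ligand Il16, listed with them, were below background on every array.

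In the IL-1 family Il18, an interleukin that caspase-1 cuts to its active form, was above background on every array, with 1131, 1047 and 917 in Slc26a4+/+ against 1059.8, 1177 and 1227 in Slc26a4-/- (log2 fold change 0.16, SE 0.15, adjusted p = 0.739). The genotypes overlapped. Il18r1, the receptor chain that binds IL-18, had 295.5, 411 and 520.2 in Slc26a4+/+ against 292, 226 and 173 in Slc26a4-/-, where replicate 3 was below background. All Slc26a4-/- arrays lay below the Slc26a4+/+ arrays, replicates 1 of both genotypes by little (log2 fold change -0.82, SE 0.29, adjusted p = 0.264). The partner chain Il18rap was below background on every array, and the IL-18 binding protein Il18bp was above it on 1.

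Il1rap, the accessory chain shared by receptors for IL-1, IL-33 and IL-36, had 530.5, 438 and 351 in Slc26a4+/+ against 443, 427 and 458 in Slc26a4-/- (log2 fold change 0.03, SE 0.20, adjusted p = 0.975). Another of its 5 probe sets went apart from this one, with 338.5, 374 and 384 in Slc26a4+/+ against 32.7, 81.1 and 192 in Slc26a4-/-, below background in Slc26a4-/-, so that it was at least 1.81-fold lower there (adjusted p = 0.0922). For a bound of this kind, signals of the dimmer genotype that lay under background were raised to it before the means of log2 signals were compared. The IL-1 receptors Il1r1 and Il1r2 were below background on every array. Il1f8, the epithelial cytokine IL-36 beta, was below background in Slc26a4+/+ with 160.1, 196 and 226 and above it in Slc26a4-/- with 232, 358 and 329, at least 1.17-fold higher (log2 fold change 0.65, SE 0.27, adjusted p = 0.376). Il1f6, the related IL-36 alpha, had overlapping signals of 179.9, 223 and 413.5 in Slc26a4+/+ against 232, 235 and 239.8 in Slc26a4-/-, and the receptor for both, Il1rl2, was below background on every array.

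In the type I family Il7 and its receptor lay on opposite sides, and neither passed the threshold. Il7, a survival factor for lymphocytes made by stromal and epithelial cells, had 400.0, 337 and 346 in Slc26a4+/+ against 277, 262 and 178 in Slc26a4-/-, with no overlap (log2 fold change -0.62, SE 0.24, adjusted p = 0.344). Il7r, the receptor chain for IL-7, had 80.1, 104 and 151 in Slc26a4+/+, below background, and 272, 249.5 and 276 in Slc26a4-/-, above it. It was at least 1.03-fold higher in Slc26a4-/- (adjusted p = 0.0886, and 0.0307 without Slc26a4+/+ replicate 3). A further probe set of Il7r passed the threshold with an adjusted p of 0.0321, but its signals of 6.1, 5.1 and 11.2 in Slc26a4+/+ against 54.3, 64.6 and 77.3 in Slc26a4-/- were below background on every array, so that no fold is given. It was 1 of 2 among the 163 probe sets to pass, beside that of Tnfrsf21, where 1.19% of all probe sets passed upward and 0.540% downward.

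Il3ra, the binding chain for the haematopoietic factor IL-3, had 19.1, 28.3 and 34.7 in Slc26a4+/+ against 113, 110.0 and 160.5 in Slc26a4-/-. All of these were below background, and the adjusted p was 0.0569, and 0.0444 without Slc26a4+/+ replicate 3. Il15, a factor for NK cells and memory T cells, and Il15ra, the chain that presents it, were above background on 1 Slc26a4+/+ array and on 3 Slc26a4-/- arrays each. The signals of Il15 were 276.5, 161 and 189 in Slc26a4+/+ against 292, 305 and 275 in Slc26a4-/- (log2 fold change 0.51, SE 0.27, adjusted p = 0.508), and those of Il15ra were 346, 246 and 132 and 230.1, 281 and 382 (0.38, SE 0.36, adjusted p = 0.757). Both genes overlapped between the genotypes. Il13ra1, a signalling chain for IL-4 and IL-13, had 501, 349 and 304 in Slc26a4+/+ against 413, 489 and 453 in Slc26a4-/- (0.26, SE 0.23, adjusted p = 0.724). The T cell cytokines Il2, Il4, Il5, Il13 and Il21 were below background on every array.

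Il6st encodes gp130, the signalling chain shared by IL-6, IL-11 and several related cytokines. Its signals were 3583, 3245 and 5829 in Slc26a4+/+ against 3651, 3171 and 4083 in Slc26a4-/-, with Slc26a4+/+ replicate 3 above the others (log2 fold change -0.17, SE 0.22, adjusted p = 0.819). The sign of this small difference changed with the processing, and a further probe set of Il6st pointed the other way, with 2039, 1788 and 1528 in Slc26a4+/+ against 2372, 2388 and 2204 in Slc26a4-/- (0.39, SE 0.15, adjusted p = 0.316). Il6ra, the binding chain for IL-6, had 280.4, 363 and 846 in Slc26a4+/+ against 323, 316 and 250.4 in Slc26a4-/-, where the same Slc26a4+/+ array was again the highest (-0.59, SE 0.37, adjusted p = 0.595). Il11 was below background on every array, with 113, 117 and 228 in Slc26a4+/+ against 19.8, 47.1 and 82.6 in Slc26a4-/- (adjusted p = 0.24), and so was Il6.

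In the IL-10 family Il10rb, the chain shared by receptors for IL-10, IL-22 and type III interferons, had 4206, 4141 and 2522 in Slc26a4+/+ against 4623, 4504 and 4830.5 in Slc26a4-/-. All Slc26a4-/- arrays were above the Slc26a4+/+ arrays, and Slc26a4+/+ replicate 3 was the lowest (log2 fold change 0.40, SE 0.20, adjusted p = 0.478). Il10ra, the chain that binds IL-10 itself, was below background on every array, with 15.4, 30.0 and 15.0 in Slc26a4+/+ against 139, 143.5 and 12.7 in Slc26a4-/-. The epithelial cytokine Il20 was above background on every array, with 290.3, 394 and 458 in Slc26a4+/+ against 331, 349.5 and 292 in Slc26a4-/- (-0.21, SE 0.23, adjusted p = 0.789). The soluble IL-22 binding protein Il22ra2 was below background with 149, 236 and 221 in Slc26a4+/+ against 115, 111 and 115 in Slc26a4-/- (adjusted p = 0.341).

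The interleukins and Tnf among the acute inflammation genes that the study looked at lay below the background used here, the upper range of olfactory receptor signals, with 1 array as an exception. The detection calls of the array software were not used here. By those calls the paper lists Il10 as present on every array of both genotypes, although its signals lay under this background. Il1a, Il6, Il10, Il12a, Il12b and Tnf were below background on all 6 arrays, and Il1b was above it on Slc26a4-/- replicate 1 alone. Il1b, the secreted IL-1 of activated macrophages, had 178, 210.4 and 131 in Slc26a4+/+ against 201, 186 and 81.8 in Slc26a4-/- (adjusted p = 0.879). Il6, an inducer of the acute phase response, had 2.7, 27.4 and 11.0 and 41.7, 28.7 and 21.4, respectively (adjusted p = 0.511). Il10, which restrains macrophages, had 72.8, 119.5 and 155 and 69.4, 87.5 and 103 (adjusted p = 0.802). Il1a, an alarm cytokine of damaged cells, had 15.5, 17.6 and 53.2 and 80.6, 22.6 and 27.9 (adjusted p = 0.816). The signals of Il12a and Il12b, the subunits of IL-12, ranged from 70.0 to 235 and from 78.4 to 119.5. Signals under this background of 187 to 319 were not told apart from those of the olfactory receptors.

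Probe sets of a gene did not always move together. Of the 102 genes 41 had more than 1 probe set. For Tnfrsf19 the probe set described above gave 0.67, while the other 2, below background on every array, had -0.54 and -1.49 on the log2 scale, and the average over all 3 was -0.46. With the log2 signals of all probe sets of a gene averaged, Tnfrsf21 had a log2 fold change of -0.64 (adjusted p = 0.0753), and Il3ra and Il7r passed the threshold.

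**Figure D4:**
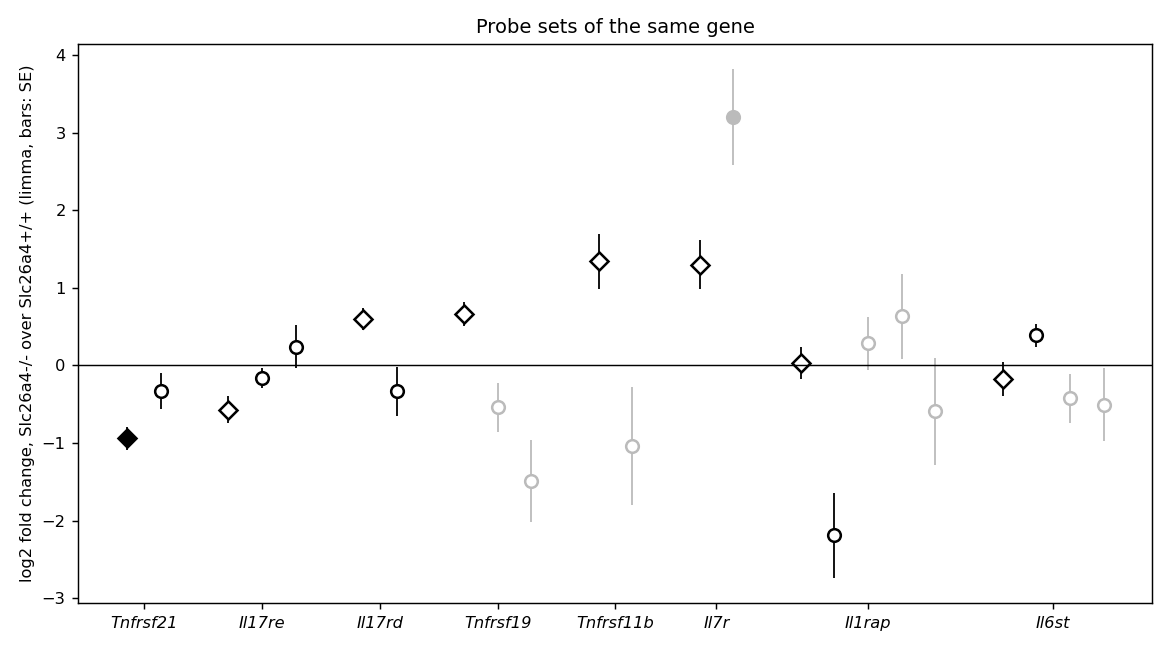
Log2 fold change (Slc26a4-/- over Slc26a4+/+) of each probe set of the genes shown, with SE of the limma fit, diamonds for the probe set that stands for the gene and grey for probe sets below background on every array. The probe sets of Il1rap lie from -2.19 to 0.63, and both probe sets of Tnfrsf21 lie below 0.

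Genes that act downstream of these receptors, and genes of the inflammasome, were read from lists chosen by pathway. Of 14 measured genes of TNF receptor signalling, TRAF adaptors and death domain proteins among them, 0 passed the adjusted threshold of limma, and 4 were higher and 0 lower at an unadjusted p under 0.05. Of 12 genes of the IL-1 and MyD88 list, which holds inflammasome genes beside those of receptor signalling, 1 rose and 0 fell. This was Pycard, the adaptor ASC of the inflammasome, with 679.6, 582 and 582 in Slc26a4+/+ against 1437, 1349 and 1522 in Slc26a4-/- (log2 fold change 1.23, SE 0.15, adjusted p = 0.00313). Of 10 genes of the NF-kB group 1 rose, the inhibitor Nfkbie, which was below background in Slc26a4+/+ with 145, 198 and 231 and above it in Slc26a4-/- with 394, 458 and 432, at least 1.66-fold higher (adjusted p = 0.0439). At an unadjusted p under 0.05, 2 genes of the IL-1 and MyD88 list and 3 of the NF-kB list were higher and 0 lower. Over all genes 8.48% were higher and 6.42% lower at that level, and 1.88% and 0.803% at the adjusted threshold. The medians of these 3 lists were 0.21, 0.11 and -0.04 on the log2 scale, against -0.03 over all genes.

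On the side of JAK and STAT, 1 of 15 genes rose and 0 fell, with a median log2 fold change of 0.17. At an unadjusted p under 0.05, 4 of these genes were higher and 0 lower. Socs3, a feedback inhibitor that binds gp130 and that STAT3 induces, had 490.4, 444 and 669.8 in Slc26a4+/+ against 1063, 975 and 1448 in Slc26a4-/- (log2 fold change 1.12, SE 0.21, adjusted p = 0.0311). Of 8 relatives of the gp130 family with other symbols 1 rose and 0 fell, with a median of -0.01. This was Osmr, the receptor chain for oncostatin M that pairs with gp130. It was below background in Slc26a4+/+ with 186, 124 and 197 and above it in Slc26a4-/- with 588, 652 and 605.5, at least 2.38-fold higher (adjusted p = 0.00382). Lifr, the chain for leukaemia inhibitory factor, had 3085.5, 1879 and 1852 in Slc26a4+/+ against 1707, 1265 and 1663 in Slc26a4-/- (log2 fold change -0.53, SE 0.22, adjusted p = 0.367). At an unadjusted p under 0.05, 1 of these 8 relatives was higher and 1 lower.

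Markers of cell types moved with genotype on the same arrays. Of 13 macrophage markers 8 rose and 0 fell, their summed signal was 6532 to 8776 in Slc26a4+/+ and 34036 to 35921 in Slc26a4-/-, and only Itgam was below background on every array. Of 6 markers of spiral ligament fibrocytes 4 rose, namely Otos, Dcn, Chad and Ucma. The summed signal of the 6 was 4273 to 7247 in Slc26a4+/+ and 9749 to 12496 in Slc26a4-/-. Coch, with a mean of 2391 in Slc26a4+/+ against 2473 in Slc26a4-/-, and Lum, with 332 against 365, did not pass limma (adjusted p = 0.885 and 0.843). Of 6 marginal cell markers 1 fell, and 5 were lower at an unadjusted p under 0.05, with a summed signal of 46860 to 66005 in Slc26a4+/+ and 37431 to 39291 in Slc26a4-/-. The 3 measured B cell markers, 2 NK cell markers, 5 neutrophil markers and 4 mast cell markers were below background on every array, and so were 4 of the 6 T cell markers, namely Cd3d, Cd3e, Cd3g and Cd2. The T cell marker Cd8a was above background on all 6 arrays, with 227, 421 and 504 in Slc26a4+/+ against 410.3, 384 and 371 in Slc26a4-/- (adjusted p = 0.938). Cd4, which T cells share with some macrophages, had 11.5, 21.6 and 30.5 in Slc26a4+/+ against 346, 67.5 and 300.3 in Slc26a4-/-, where 2 arrays were above background (log2 fold change 3.29, SE 0.70, adjusted p = 0.0525). Both are values of the brightest probe set of the gene. By its detection calls over all probe sets, the paper lists Cd4 as absent in both genotypes and most calls of Cd8a as absent. Of 4 intermediate cell markers 1 rose, and of 3 basal cell, 5 endothelial and 6 T cell markers 0 passed the threshold of limma, with 0, 2 and 1 higher at an unadjusted p under 0.05. Over all genes 1.88% rose and 0.803% fell at the threshold, and 8.48% were higher and 6.42% lower at the unadjusted level. The part of these cell types in the differences of Tnfrsf21, of the IL-17 receptors, of Il7r and of the pathway genes was not tested.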

How the data were processed

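Stria vascularis RNA was measured on 6 Affymetrix mouse 430 2.0 arrays, 3 of each genotype, and samples were grouped by their labels. For each probe set of an array the authors deposited 1 intensity, on a linear scale, after background correction and scaling by GCOS, a name taken from the submitters' processing notes. Its version and the scaling target were not given in the sources used here. Of 45101 probe sets 64 Affymetrix controls were left out. Of the 45037 tested, 34945 had 1 gene symbol, 932 had several and were not named, 6 of them from the gene families described, and 9160 had none in the annotation used. Gene numbers matched 34741 of them to genes of GRCm38.p6, which changed 0 symbols.

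Signals under 1 (172 values) were set to 1, and log2 signals of the genotypes were compared by lmFit and by eBayes with its trend option (limma 3.58.1, R 4.3.3), two-sided, with Benjamini-Hochberg adjustment over all 45037 probe sets and a threshold of 0.05. The fit was tested on simulated data. The number of arrays limits the precision. Ligands, receptors and pathway genes were sorted by textbook roles. The members, the lists and the tests were chosen with earlier results of these data known. Genes named were those with a probe set past the threshold or an unadjusted p under 0.05, the 10 with the highest mean signal, the inflammation panel of the study, genes above background on all 6 arrays and pathway genes that passed. Other genes were named after their values were seen, to give ligands beside their receptors, further members above background, counts of 5 or fewer and, of the pathway genes, Lifr. Alternatives covered the pseudocount, the filter on dim probe sets, normalization, the trend, array weights, replicate numbers as a block, a t-test paired by replicate number, the Xist signal as a covariate, the probe set that stands for a gene, the level of background and each array left out. The paper names paired t-tests in its statistics but compared its arrays by ratios of averaged signals. Promoters came from RefSeq, searched on both strands.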

Additional observations from a re-analysis of the deposited data

How the results depend on the processing

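The count of genes called in this group was small and moved with most settings. Against 0 higher and 1 lower in the fit reported, limma called 1 higher with a pseudocount of 16 and 1 with a pseudocount of 64. With a mean signal of at least 300, which left 19 of the genes, it called 3 higher (4.07% of all 9091 genes that were left). Among these was Il17rb, with a mean of 276 in Slc26a4+/+ and 532 in Slc26a4-/-, which passed the minimum only through Slc26a4-/-. With each array centred on its median limma called 1 higher and 0 lower, with quantile normalization 2 higher, and with array weights 8 higher and 4 lower of 102, against 6.95% higher and 5.0% lower of all 18193 genes under those weights. Without the trend, with a t-test paired by replicate number (Benjamini-Hochberg adjusted) and with Xist as a covariate, 0 were called higher and 0 lower. Over all 18193 genes, 0.308% were higher and 0.055% lower without the trend. The t-test called 0 of all genes, and the Xist covariate left 0.077% higher and 0 lower. A count of 0 under these settings therefore says little about this group. With probe sets averaged by gene, 2 were higher and 0 lower, and with the probe set of the smallest p 1 was higher. A ratio of mean signals above 1.3, with no test, called 19 higher and 32 lower, against 2912 higher and 3944 lower of all 18193 genes by the same ratio. The paper used this limit for its arrays together with detection calls, which were not applied here. With 1 array left out, between 0 and 3 were higher and between 0 and 2 lower. Without Slc26a4+/+ replicate 1 these were 2 and 2, without Slc26a4+/+ replicate 3 they were 3 and 1, and without Slc26a4+/+ replicate 2 or any Slc26a4-/- array they were 0 and 0. Of receptors, 1 was called in the fit reported, 2 with a pseudocount of 16 or 64, 4 with the signal minimum, 3 with quantile normalization, 10 with array weights, 2 with the mean of probe sets or the smallest p, 25 by the ratio, 0 without the trend, with the t-test or with the Xist covariate, and 0 to 4 with 1 array left out. Of ligands, 0 were called in the fit reported, 1 with array weights and 22 by the ratio. The causes were not tested. The median log2 fold change of the receptors ranged from -0.12 to 0.26 and that of the ligands from -0.385 to 0.04 over the alternatives. Between 20 and 23 receptors and between 5 and 9 ligands were above background. Alternatives were not run for the pathway and marker genes.

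Tnfrsf21 passed in 10 of 19 alternatives with a test, with log2 fold changes from -1.19 to -0.64. On the log2 scale Il12a was 0.24 with array weights, 0.44 with the Xist covariate and from -0.46 to 0.42 with 1 array left out. Il12b was 0.34 with the mean of probe sets, 0.86 with the smallest p and 0.23 by the ratio. Il1b was from -0.46 to 0.19 with 1 array left out, and Il6 was -1.04 with the Xist covariate. Il6st was 0.0789 with array weights, 0.21 with the Xist covariate, 0.39 with the smallest p and from -0.34 to 0.0847 with 1 array left out. Tnf was 0.19 with array weights, 0.42 with the Xist covariate and from -0.76 to 0.021 with 1 array left out. Tnfrsf12a was -0.20 with array weights, -0.56 with the Xist covariate and from -0.0733 to 0.30 with 1 array left out. Tnfrsf19 was -0.46 with the mean of probe sets and -0.18 by the ratio. Tnfrsf1a was -0.0237 with centring on the 75th percentile, -0.0154 with quantile normalization, -0.0174 by the ratio, -0.0354 with array weights, -0.17 with the Xist covariate, and from -0.19 to 0.18 with 1 array left out.

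Same-numbered arrays deviated together by correlations of 0.09, 0.03 and 0.03, and differently numbered ones by -0.10 to 0.07. With so few arrays these values cannot settle whether the numbers pair the samples. With the replicate number as a block, 0 genes were higher and 1 was lower (1 receptor and 0 ligands), and Tnfrsf21 kept its call (log2 fold change -0.94, adjusted p = 0.0135). The block changed no other call.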

Other observations

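Il3ra, Il17rd, Il17rb and Tnfrsf19, which are 4 of the 8 genes with an unadjusted p under 0.05 and higher signals in Slc26a4-/-, all lie on chromosome 14. Il3ra was below background on every array, and so were the other 4 member genes of that chromosome, Il17d, Il25, Tnfrsf10b and Tnfsf11. With the probe sets of a gene averaged, the log2 fold change was 0.13 for Il17rd and -0.46 for Tnfrsf19. Over all 640 genes of chromosome 14, 61 were higher and 33 lower at an unadjusted p under 0.05 (14.7%, against 14.9% over the genome). This grouping was noticed after the values were seen and was not tested.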
